A study of Arabidopsis thaliana with 7 samples.

Results

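The peaks described here are the widest ones of a ZF-DDR5 ChIP-seq peak list, those whose end minus start reached 1300 bp. They were chosen by the measured width alone, and there were 378 of them among the 9999 peaks of the list (3.78%). They are set beside the 3312 peaks of 400 to 600 bp, which lie around the median width of the list. ChIP-seq recovers the DNA that is crosslinked to a protein, and a peak is an interval where more DNA was recovered than the peak caller took as background. In ZF-DDR5, DDR5, a DDT-related protein, is joined to a zinc finger (ZF) that binds a chosen DNA sequence.

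The study used Arabidopsis thaliana seedlings at day 12, with ZF-DDR4 (n = 2, lines that express a DDR4-FLAG-ZF fusion), Col-0 wild type (n = 2), ZF-DDR5 (n = 2) and a further Col-0 sample whose title has the mark g3 (n = 1). The ZF-DDR5 titles have the same mark, which no label explains. Only 1 list was analysed here, deposited under ZF-DDR5 replicate 1 with no statement on whether replicates were pooled, so no value has a replicate error and no comparison with Col-0 was possible. The promoter that drives the fusion and the number of independent ZF-DDR5 lines are not stated in the labels. The protocol describes anti-FLAG precipitation of DDR4 lines and is repeated for ZF-DDR5, whose labels name no antibody. That protocol aimed at chromatin fragments of 200 to 500 bp, so every peak of 1300 bp or more was longer than the longest intended fragment. Peaks of 1 list are not replicates, so no test was run, and the spread over the 5 chromosomes and 95% intervals for counting error are given in its place.

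DDT-domain proteins are known as partners of ISWI chromatin remodellers, enzymes that slide nucleosomes along DNA and set their spacing over genes. The list holds no score, so how strongly a peak was bound is unknown, and only its place and width can be described.

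Counts fell towards the wide end, with no gap at the threshold. There were 150 peaks of 1200 to 1299 bp, 106 of 1300 to 1399 bp, 89 of 1400 to 1499 bp, 66 of 1500 to 1599 bp and 56 of 1600 to 1699 bp. Above that, 26 peaks measured 1700 to 1799 bp, 21 measured 1800 to 1899 bp and 14 measured 1900 bp or more. The 378 widest peaks ran from 1301 to 1981 bp, with a median of 1492.5 bp (quartiles 1385 and 1646.25 bp). Whether peak calling limited the width or the number of peaks is not stated, so the upper end may not be that of the signal. They made up 9.90% of all bases under peaks, or 0.578 of 5.84 Mb. The members next to the threshold lay in AT4G27120 (1301 bp), AT2G32000 (1303 bp), UBP14 (1304 bp, a ubiquitin-specific protease), AT1G57630 (1306 bp) and UREG (1307 bp, a urease accessory protein). Just outside it were peaks in AtCaN2 (1299 bp), PS1 (1297 bp), LPP2 (1292 bp, a lipid phosphate phosphatase), AT1G11990 (1292 bp) and AT5G53480 (1290 bp).

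**Figure D1:**
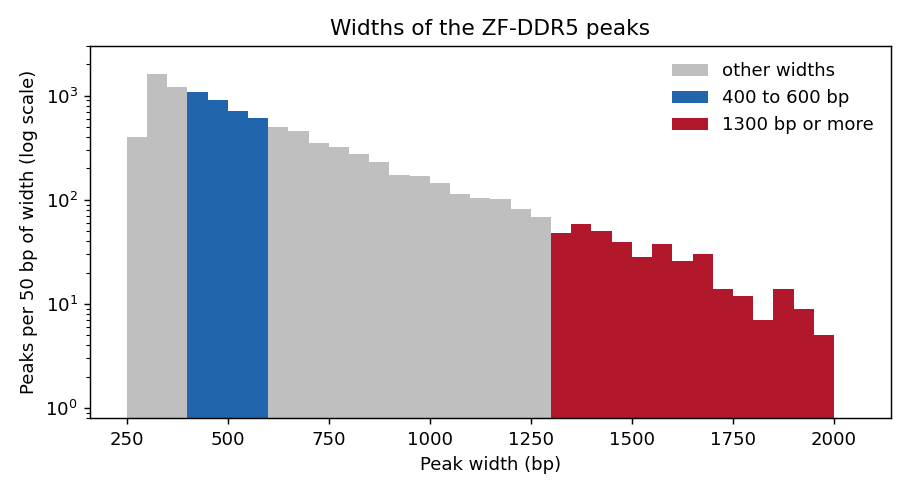
Number of ZF-DDR5 peaks per 50 bp of width (log scale) against peak width in bp, with the 378 peaks of 1300 bp or more in red, the 3312 peaks of 400 to 600 bp in blue and other widths in grey. Counts fall with width beyond the median, with no gap at 1300 bp, and end at 1981 bp.

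The widest peaks lay almost entirely on genes. Of the 378 centres, 332 fell in a protein-coding gene (87.8%, Wilson 95% interval 84.1% to 90.8%), against 2832 of the 3312 peaks of 400 to 600 bp (85.5%, 84.3% to 86.7%), so the difference of 2.32 percentage points had an interval that included 0 (-1.54 to 5.50). When a peak was placed by its largest overlap in place of its centre, the shares were 91.5% and 86.9%. The interval of the difference, 1.24 to 7.35 points, did not include 0. A wider peak overlaps a gene more often, so this second difference depends in part on the width that chose the members. Another 28 centres lay in pseudogenes (7.41%, 5.17% to 10.5%), close to the 6.91% of the narrower peaks. No member was centred in a non-coding RNA gene outside protein-coding genes, 0 of 378. This allows a share of up to 0.794% by 3 counts of the total, or up to 1.01% by the Wilson interval. The narrower peaks had 46 such centres (1.39%, 1.04% to 1.85%), 30 of them in lncRNA genes. Only 18 members had a centre in no gene at all, 12 of them within 1000 bp of a protein-coding gene and 6 farther away.

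Each chromosome had its share of wide peaks. There were 109 on chromosome 1, 58 on chromosome 2, 69 on chromosome 3, 54 on chromosome 4 and 88 on chromosome 5. The density was 3.13 ± 0.293 per Mb (SD over n = 5 chromosomes), highest on chromosome 1 at 3.58 and lowest on chromosome 4 at 2.91. Members made up 3.48% to 4.18% of the peaks of a chromosome, and the Wilson intervals of all 5 chromosomes overlapped. The widest peak of chromosome 1 measured 1947 bp and lay over BAC2, a mitochondrial carrier of basic amino acids, at chromosome 1, 30052621 to 30054567 (TAIR10, as are all positions here). That of chromosome 2 measured 1975 bp, in AT2G24280 (10334444 to 10336418). On chromosome 3 it measured 1859 bp, in AT3G46810 (17238507 to 17240365). On chromosome 4 it measured 1939 bp, in APM1, an aminopeptidase (15966770 to 15968708). The widest of all, 1981 bp, lay on chromosome 5 in ARO2, an armadillo repeat protein (26453659 to 26455639). It left 383 and 515 bp of the gene free at the ends, whereas the BAC2 peak ran 631 bp beyond an edge of its gene.

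The share of the widest peaks in gene-poor regions was close to the share of protein-coding genes there. Of the 240 windows of 500 kb along the chromosomes, 40 were gene-poor, with under 50% of the median of 130.5 protein-coding genes. They held 1173 of the 27444 protein-coding genes (4.27%) and 638 of all 9999 peaks (6.38%). Within them lay 14 of the 378 members (3.70%, Wilson interval 2.22% to 6.12%) and 229 of the 3312 peaks of 400 to 600 bp (6.91%, 6.10% to 7.83%). The difference was -3.21 percentage points, with an interval from -4.95 to -0.660. The share by chromosome ran from 2.27% to 5.17% for members and from 5.34% to 10.1% for the narrower peaks. With peaks of 1500 bp or more only, the difference was -1.45 points and its interval, -4.08 to 2.93, included 0. Of the 14 centres, 6 lay in protein-coding genes and another 6 in pseudogenes. For the 229 narrower peaks there, 75 lay in protein-coding genes and 97 in pseudogenes. Members lay in 177 of the 240 windows, with at most 7 in a window (chromosome 3, 4500001 to 5000000, where 53 peaks lay in all).

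In total, 341 protein-coding genes had the centre of a peak of 1300 bp or more in the gene body, or 1.24% of the 27444. The centre of a peak of 400 to 600 bp lay in 2732 of them (9.95%). A centre can lie in overlapping gene models, as 11 of the members did. Each such gene was counted among the 341. For the measures of the 332 members centred in a protein-coding gene, the gene with the larger overlap was used.

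The genes under the widest peaks were only slightly longer than those under narrower ones. Their median length was 2965.5 bp (n = 332, 95% order-statistic interval 2726 to 3192 bp), from 2689 to 3333 bp on the 5 chromosomes. Under peaks of 400 to 600 bp it was 2775 bp (n = 2832, 2712 to 2860 bp), and over all protein-coding genes 2078 bp. The difference of 190.5 bp had an interval from -63.6 to 426 bp, so a difference was not detectable here. Peak width and gene length were hardly related within the set (Spearman's rho 0.0768 across 332 peaks, which share 1 library and are not independent).

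Long genes had a wide peak more often, as they had a narrow one more often. A wide peak was centred in 4 of 4381 genes of up to 1 kb (0.0913%), in 61 of 8626 genes of 1 to 2 kb (0.707%) and in 109 of 7427 genes of 2 to 3 kb (1.47%). The share was 1.62% of 3762 genes of 3 to 4 kb, 2.96% of 2368 genes of 4 to 6 kb and 4.09% of 880 genes over 6 kb. The corresponding shares for peaks of 400 to 600 bp were 4.27%, 6.87%, 10.7%, 13.2%, 17.5% and 28.1%. Among all peaks centred in a gene, members were 1.01% (4 of 396) in genes of up to 1 kb. They were between 3.29% (1 to 2 kb) and 5.08% (4 to 6 kb) in the longer bands. Of the 10 differences between those 5 bands, 2 had an interval without 0, namely 4 to 6 kb above 1 to 2 kb by 1.79 percentage points (0.387 to 3.28) and above 3 to 4 kb by 1.58 points (0.131 to 3.09), intervals not adjusted for the number of pairs. The share did not rise at each step, being 4.37% in genes of 2 to 3 kb and 4.18% in those over 6 kb.

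**Figure D2:**
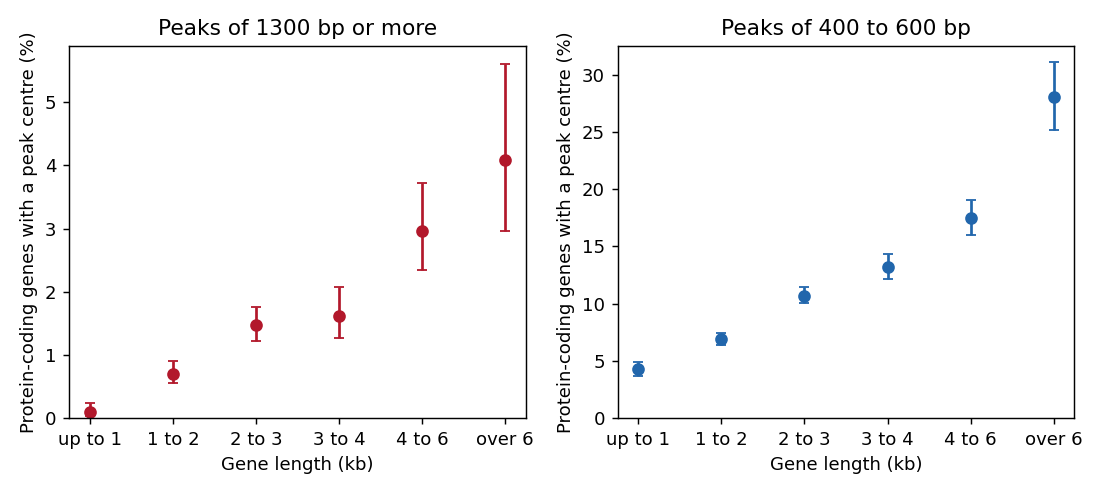
Share of protein-coding genes (%) with the centre of a peak of 1300 bp or more (left) and of 400 to 600 bp (right), by gene length in kb, with Wilson 95% intervals that cover counting error only. Both rise with gene length, from 0.0913% to 4.09% on the left and from 4.27% to 28.1% on the right, on different axes.

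Despite their width, most of these peaks stayed within 1 gene. Of the 332 centred in a protein-coding gene, 248 lay wholly inside it (74.7%, Wilson interval 69.8% to 79.1%), from 67.9% to 78.3% by chromosome. Another 81 ran over 1 edge, 38 over the edge of lower coordinate and 43 over that of higher coordinate. Another 3 covered the whole gene. Of the peaks of 400 to 600 bp, 88.1% (86.8% to 89.2%) lay wholly inside. Only 13 of the genes were shorter than their peak. Counting any overlap of at least 1 bp, 289 members touched 1 protein-coding gene, 57 touched 2 or more (15.1%, against 3.35% of the narrower peaks) and 32 touched none. The share wholly inside and the number of genes touched depend on the width that chose the members, and are given as a description. A peak of 1558 bp (chromosome 3, 4850871 to 4852428) touched 4 gene models, AT3G14450, AT3G14452, AT3G14460 and AT3G14463.

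A median of 47.6% of the gene was covered by its wide peak (interval 43.6% to 51.7%, from 43.0% to 54.0% by chromosome), against 17.0% for peaks of 400 to 600 bp. Width chose the members, so this difference follows in part from the choice and is given as a description. The spread among members was large, from 6.23% to 100%. At least 50% of the gene was covered in 158 of the 332 cases, at least 80% in 43 and at least 90% in 16, while 38 peaks covered under 25%. In genes of 1 to 2 kb the median was 80.3%, in those of 2 to 3 kb 58.1%, in those of 3 to 4 kb 43.3%, in those of 4 to 6 kb 30.5% and in longer ones 20.4%.

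The most fully covered genes were short. The peaks over AT3G44695 (a gene of 798 bp, peak of 1564 bp), CIPK22 (1296 bp, peak of 1482 bp) and AT1G57630 (713 bp, peak of 1306 bp) covered the whole gene. CIPK22, a kinase of the calcium-sensing CBL-CIPK system, was overrun by 160 bp at one edge and 26 bp at the other. ILR2, named for resistance to a conjugated form of auxin, was covered to 97.7% by a peak of 1326 bp. YUC7, a flavin monooxygenase of auxin synthesis, was covered to 94.7% by a peak of 1565 bp. That peak lay wholly inside the gene (chromosome 2, 14080403 to 14081967), with 4 bp free at one end and 84 bp at the other. The other 5 of the 10 most covered genes were AT5G54450 (97.0%), AT1G46840 (95.7%), AT3G47130 (95.3%), AT1G14500 (94.2%) and AT1G31080 (94.1%). Besides AT1G57630, AT3G44695 and AT1G31080 (1068 bp), the shortest genes to which a member was assigned were AT2G29180 (903 bp, 87.9% covered) and AT1G68585 (964 bp, 81.6% covered). PSRP3/1, of 1008 bp, shares the last of these peaks.

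At the other extreme, wide peaks covered a small part of very long genes. The longest gene was AT1G48090, of 26499 bp, where a peak of 1652 bp covered 6.23%. TIL1, the catalytic subunit of DNA polymerase epsilon, measures 18039 bp and had a peak of 1377 bp that covered 7.63% and began 5027 bp from the nearer edge (chromosome 1, 2600489 to 2601865). In AT5G23110 (17576 bp) a peak of 1754 bp covered 9.98%. In MOR1 (14188 bp), a microtubule-associated protein, a peak of 1365 bp covered 9.62% and lay 5115 bp from the nearer edge (chromosome 2, 14974282 to 14975646). In emb2410 (12396 bp) a peak of 1491 bp covered 12.0%. Counting peaks of every width, AT1G48090 held 5, emb2410 4, AT5G23110 2 and MOR1 2, whereas TIL1 held 1.

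**Figure D3:**
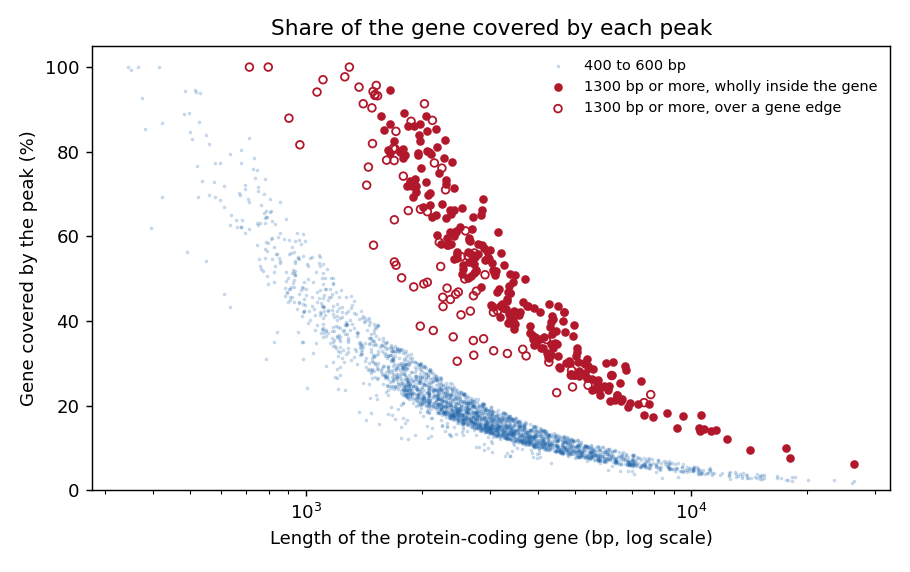
Share of the gene covered by its peak (%) against the length of the protein-coding gene (bp, log scale), 1 point per peak: blue for 400 to 600 bp, filled red for peaks of 1300 bp or more wholly inside the gene, open red for those over a gene edge. The red points run from 100% in genes of about the peak's own length to 6.23% in the longest gene, and the open ones lie mostly in the shorter genes.

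The centres of the widest peaks lay deep in the gene. The median distance from the centre to the nearest gene edge was 954 bp (interval 902 to 1010 bp, from 899 to 965 bp by chromosome), against 557 bp (541 to 576 bp) for peaks of 400 to 600 bp. The band from 750 to 1000 bp held 99 of the 332 centres (29.8%) and that from 1000 to 2000 bp 116 (34.9%). The narrower peaks had their largest share, 30.6%, at 250 to 500 bp. A wide peak that fits in a gene cannot be centred close to an edge, so this distance depends on the width that chose the members. With each gene cut into 3 equal parts, the centre lay in the middle part in 179 of 332 cases (53.9%, Wilson interval 48.5% to 59.2%), against 32.2% (30.5% to 33.9%) of the narrower peaks, with the same dependence.

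The gaps between the ends of the peak and the gene edges shrink as width grows, so they too depend on the choice by width and are given as a description. Among the 248 members wholly inside a gene, the nearer end stopped a median of 287 bp from the gene edge (interval 258 to 365 bp), against 384.5 bp (360 to 408 bp, n = 2494) for the narrower peaks. The farther end stopped a median of 1504 bp (1259 to 1597 bp) from its edge, against 1831 bp (1765 to 1897 bp). Width enters less when the nearer gap is expressed as a share of the gene length left uncovered, which is 50% for a peak in the exact middle and 0% for one that starts at an edge. The medians were 21.6% (19.5% to 24.6%) and 20.9% (19.7% to 21.9%). The intervals overlapped, and the curves of both sets ran close together. In genes of 2 to 4 kb the nearer gap was 232 bp (207 to 265 bp, n = 124) against 408 bp (381 to 446 bp, n = 1214), and the shares were 21.0% (17.9% to 24.3%) and 18.4% (17.4% to 19.8%). Within 100 bp of an edge, 37 of the 332 members (11.1%) had their nearer end inside the gene, and 298 of the 2832 narrower peaks (10.5%). Both ends lay within 250 bp of the edges in 17 members (5.12%, 3.22% to 8.05%) and in 2.19% of the narrower peaks. The strand of the genes was not used, so an edge may be a start or an end of transcription.

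**Figure D4:**
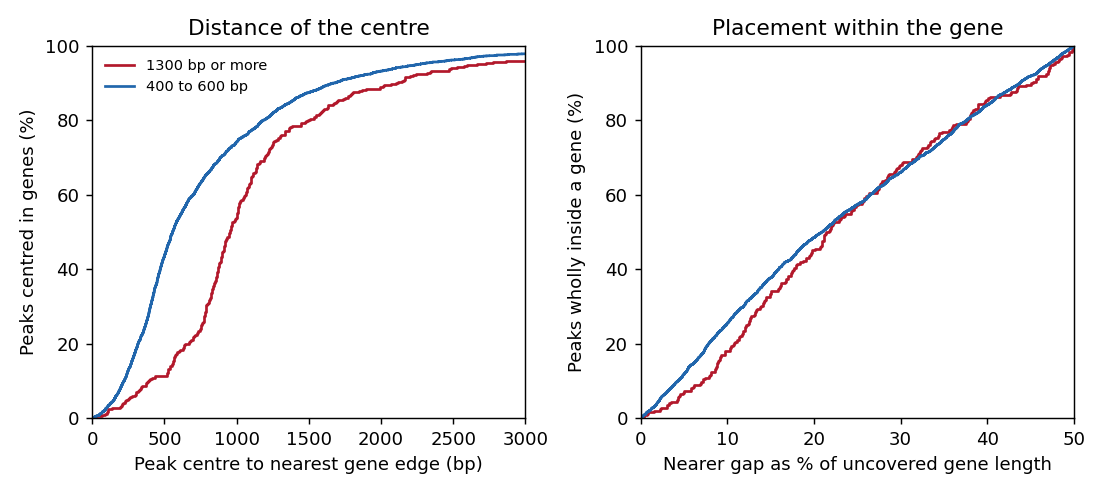
Cumulative share of peaks (%) by distance from the peak centre to the nearest gene edge in bp (left, drawn to 3000 bp) and by the nearer gap as % of the uncovered gene length for peaks wholly inside a gene (right), for peaks of 1300 bp or more (red) and 400 to 600 bp (blue). On the left the red curve is shifted to longer distances (medians 954 and 557 bp), and on the right the curves nearly coincide (medians 21.6% and 20.9%).

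Genes of 2 to 4 kb with a wide peak more often had a single annotated transcript than those with a narrower one. In genes of other lengths it was less often. In the RefSeq table, 99 of the 170 genes of 2 to 4 kb with a member (58.2%, Wilson interval 50.7% to 65.4%) had 1 transcript. It was 611 of 1291 (47.3%, 44.6% to 50.1%) for such genes with a peak of 400 to 600 bp, and 47.8% for all 11189 protein-coding genes of that length. By chromosome the share ran from 53.6% to 60.0% with a member and from 43.6% to 52.5% with a narrower peak. Over genes of every length the shares were close, 184 of 341 (54.0%, 48.7% to 59.2%) and 1437 of 2732 (52.6%, 50.7% to 54.5%). Both were below the 61.0% of all protein-coding genes. By these counts, outside 2 to 4 kb the share was lower with a member than with a narrower peak. Exon structure was not analysed here. An overlapping lncRNA or antisense RNA gene was annotated at 27 of the 341 genes (7.92%, 5.50% to 11.3%), against 6.63% for the narrower peaks and 5.81% of all protein-coding genes. A gene symbol was given for 155 of the 341 (45.5%), against 43.9% for the narrower peaks and 37.8% of all protein-coding genes.

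Most genes with a wide peak had no other peak, as did most genes with a narrower one. Of the 341 genes, 71 had a further peak centre of any width (20.8%, Wilson interval 16.8% to 25.4%), against 628 of the 2732 genes with a peak of 400 to 600 bp (23.0%, 21.4% to 24.6%). In genes of 2 to 4 kb the shares were 14.7% (10.2% to 20.8%) and 22.0% (19.8% to 24.3%). A wide peak leaves less of the gene free for a second centre, so these shares depend on the width that chose the members. A pair of members shared a gene at 1 locus only, with peaks of 1584 and 1338 bp on chromosome 5 (26311290 to 26312873 and 26314142 to 26315479). There the gene models of ATBCAT-5, a branched-chain aminotransferase, and LINC4, a nuclear coiled-coil protein, overlap and both hold the centres of the 2 peaks. The gap to the nearest other peak was a median of 2707.5 bp (2307 to 3182 bp) for members and 3099 bp (2935 to 3300 bp) for narrower peaks. Within 1000 bp of another peak lay 103 members (27.2%, 23.0% to 31.9%) and 735 of the narrower peaks (22.2%, 20.8% to 23.6%). Within 200 bp lay 4 members (1.06%) and 52 of the narrower peaks (1.57%). Gaps were measured from peak end to peak end, so they too depend on the width that chose the members.

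Genes of chromatin and transcription control included some of the widest peaks. Counts over gene lists are given beside the 1.24% of all protein-coding genes with a member, and members of 1 list can be alike in length, which by itself moves the share as shown above. The lists hold genes with a matching symbol or synonym and so only part of each family. A gene without one is not counted, and since a symbol is given for 155 of the 341 genes with a member, a low count is no measure of a whole family. The lists of remodellers, TOPLESS corepressors, armadillo repeat genes, small GTPases and translation initiation factors were drawn up with some of their genes already known to lie under the widest peaks, so their counts are not independent evidence. Of 32 chromatin remodeller genes, 3 had a member (9.38%, Wilson interval 3.24% to 24.2%), and their median length was 6041.5 bp. A peak of 400 to 600 bp lay in 12 of the 32 (37.5%, against 9.95% of all genes). CHR24 had a peak of 1976 bp (chromosome 5, 25596491 to 25598466) and CHR8 one of 1442 bp. Both carry the synonyms ERCC6 and RAD26, names of remodellers of transcription-coupled repair in animals and yeast. BRM, the ATPase of SWI/SNF complexes, had one of 1681 bp that covered 17.7% of its 9523 bp. Of the 5 TOPLESS corepressor genes, which silence targets of auxin and other regulators, TPL (1944 bp) and TPR3 (1344 bp) had a member, 4 of the 5 had a peak of any width, and none had one of 400 to 600 bp. Of 82 genes of DNA methylation and silencing, 3 had a member (3.66%, 1.25% to 10.2%). These were AGO3 (1686 bp), an Argonaute, FDM1 (1423 bp), a factor of RNA-directed DNA methylation, and SGS3 (1392 bp), a factor of small RNA amplification.

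In the lists of transcription factor genes the share with a wide peak lay between 0 and 3.00%. The counts were 0 of 131 MYB genes (which allows a share of up to 2.29%), 0 of 39 ERF genes (up to 7.69%) and 0 of 22 genes listed under a bHLH symbol (up to 13.6%). AMS (1693 bp) and HBI1 (1384 bp), bHLH factors known under other symbols, did have a member, so the last count does not stand for that family. WRKY9, with a peak of 1668 bp, was the only one of 72 WRKY genes. Of 100 NAC genes 3 had a member, NAC2 (1704 bp, 56.8% covered), NAC036 (1559 bp, 90.4% covered) and NAC082 (1391 bp, 42.4% covered). The median length of these lists lay between 1280 bp for ERF genes and 2113.5 bp for WRKY genes. A member was found in 0.707% of genes of 1 to 2 kb, and the counts of 0 allow shares above that.

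Translation initiation and cell wall synthesis genes had members at several places. Of 31 translation initiation factor genes, 4 had a member (12.9%, Wilson interval 5.13% to 28.9%) and 1 a peak of 400 to 600 bp, at a median length of 2595 bp. A peak of any width lay in 16 of the 31. That list is one of those drawn up with members known. The 4 were TIF3B1 (1974 bp) and EIF3E (1629 bp), subunits of the eIF3 complex that brings the ribosome to mRNA, and eIFiso4G1 (1379 bp) and eIFiso4G2 (1325 bp), the scaffold proteins of the plant cap-binding complex. Of 40 genes for cellulose synthases and related glycan synthases, 5 had a member (12.5%, 5.46% to 26.1%). They were CESA5 (1584 bp), CEV1 (1566 bp), which is CESA3 of the primary wall, CSLD5 (1505 bp), ATCSLC08 (1350 bp) and IRX3 (1339 bp), which is CESA7 of the secondary wall. In CESA5, CEV1 and IRX3 the covered share was 28.6%, 28.9% and 27.5%. The list had a median length of 4132.5 bp, and 9 of its 40 genes had a peak of 400 to 600 bp (22.5%).

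A list of 103 DNA replication and repair genes, drawn up after the values were seen, had 10 members (9.71%, Wilson interval 5.36% to 17.0%) at a median length of 4088 bp. Besides CHR24, CHR8 and TIL1 these were MCM3 (1711 bp), of the replicative helicase, MLH3 (1690 bp), of mismatch repair and crossing over, REV7 (1399 bp), of translesion synthesis, and TDP1 (1378 bp), which frees DNA ends from trapped topoisomerase. The other 3 were RAD51C (1349 bp), a recombinase paralog, CDC45 (1344 bp), which acts with the MCM helicase, and MUS81 (1337 bp), a structure-specific nuclease. Because the list was made from the members, its count supports nothing further.

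In the lists of receptor kinases, NLR immune receptors, cytochrome P450s, ABC transporters, UDP-glycosyltransferases and small GTPases the shares lay between 1.56% and 4.35%. Of 179 genes for receptor kinases and receptor-like proteins 5 had a member (2.79%, Wilson interval 1.20% to 6.37%). They were RLP23 (1853 bp), a receptor of a microbial peptide, AT3G45390 (1816 bp), RLP24 (1754 bp), CRK40 (1610 bp) and AT5G60280 (1490 bp). Of the 23 NLR immune receptor genes listed by symbol, LAZ5 had one (1321 bp) and 16 had a peak of some width. Of 239 cytochrome P450 genes 7 had a member (2.93%, 1.43% to 5.92%). The interval lies above the 1.24% of all genes. The median lengths are close, 2076 bp for the P450 list and 2078 bp for all genes, but the spread of lengths differs. Of the 239, 138 measured 2 to 4 kb, against 11189 of all 27444 genes. In that band 4 P450 genes and 170 of all genes had a member. A peak of any width lay in 91 of the 239, against 7372 of the 27444. Whether gene length or the number of peaks accounts for the P450 share was not tested. The P450 members were CYP705A1, CYP72A15, CYP84A4 and CYP96A9, with peaks of 1713, 1666, 1644 and 1477 bp. The others were KAO2 (1445 bp), of gibberellin synthesis, CYP96A1 (1430 bp) and CYP72A10 (1322 bp). The covered share was 86.6% in CYP705A1 and 86.2% in CYP84A4, genes of 1978 and 1908 bp. Of 128 ABC transporter genes 3 had a member, ABCG22 (1581 bp), ABCG24 (1463 bp) and ABCA12 (1357 bp). UGT73C6 (1468 bp) was 1 of 64 UDP-glycosyltransferase genes. Of 84 genes for small GTPases and their regulators, a list drawn up with both genes in view, REN1 (1934 bp) and RAC6 (1864 bp, 91.3% of the gene covered) had a member. The P450 and RLP families hold similar copies, and whether reads at CYP72A15 and CYP72A10, or at RLP23 and RLP24, map to 1 place was not assessed.

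The remaining lists, again of genes with a matching symbol, had 1 member or none. ARO2 was 1 of 6 armadillo repeat genes, LOI1 (1338 bp) 1 of 39 pentatricopeptide repeat genes, HIP1 (1632 bp), an HSP70-interacting protein, 1 of 55 genes with a heat shock symbol, and PSRP3/1 (1358 bp) 1 of 68 ribosomal protein genes. BIP3 (1319 bp), an HSP70 of the endoplasmic reticulum, had a member and stands outside that list by its symbol. The PSRP3/1 peak was also that of AT1G68585, whose gene model it overlapped more. None of 40 kinesin and myosin genes had a member (up to 7.50%). Their median length was 7136 bp, and 14 of them (35.0%) had a peak of 400 to 600 bp. The same held for 40 glutamate receptor-like and cyclic nucleotide-gated channel genes, with a median length of 3656 bp and 10 genes with the narrower peaks. A member lay in 4.09% of all genes over 6 kb and in 1.62% of those of 3 to 4 kb. Both counts of 0 allow shares above these. None of 57 nuclear photosynthesis genes had a member (up to 5.26%). Grouped by the letters of their symbols, 59 families had at least 20 genes, and 39 of them had no member. The family with the largest share was CIPK, with 3 of 21 genes (14.3%, Wilson interval 4.98% to 34.6%). These were CIPK5 (1523 bp), CIPK22 (1482 bp) and CIPK18 (1353 bp), and 1 gene of the family had a peak of 400 to 600 bp. A peak of any width lay in 8 of the 21. CIPK was picked as the largest of 59 shares after the values were seen, so its count supports nothing further.

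**Figure D5:**
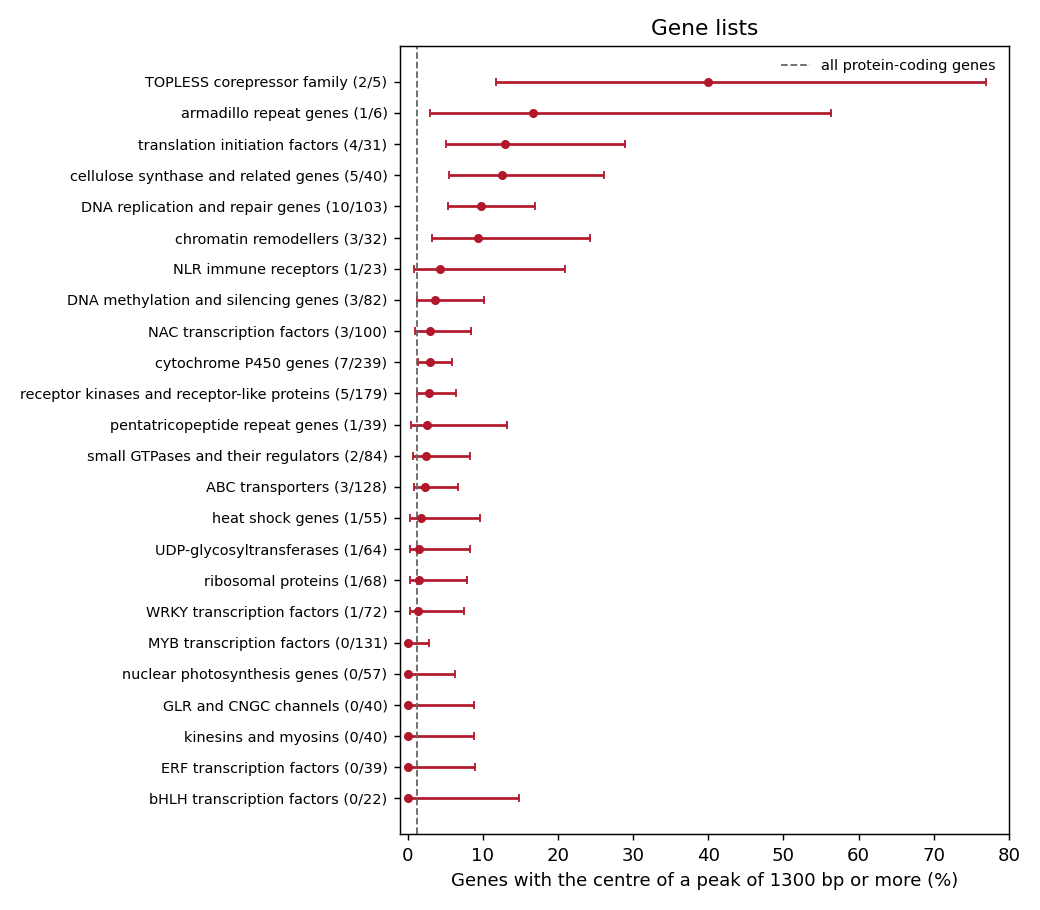
Share of the genes of each list (%) with the centre of a peak of 1300 bp or more, with Wilson 95% intervals for counting error and the count of genes in brackets, against the dashed line of all protein-coding genes at 1.24%. The intervals of most lists include the line, those above it rest on 10 members or fewer, and the replication and repair, remodeller, TOPLESS, armadillo, GTPase and initiation factor lists were drawn up with members known.

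The 28 pseudogenes with a wide peak had a median length of 4189.5 bp (range 1116 to 7765 bp), against 3467 bp for the 229 under peaks of 400 to 600 bp, and 24 were annotated as pseudogenes and 4 as transcribed pseudogenes. A median of 37.1% of the pseudogene was covered, from 19.6% to 100%, against 13.2% under the narrower peaks. Of the 28 peaks 16 lay wholly inside (57.1%), against 77.7% of the narrower ones. The covered share and the share inside both depend on the width that chose the members. The widest of the 28 lay in AT2G06560 (1940 bp, chromosome 2, 2614285 to 2616224) and AT4G09425 (1903 bp, chromosome 4, 5967364 to 5969266). AT5G65676, of 1458 bp, was covered in full by a peak of 1751 bp, and the P450 pseudogene CYP71B33 to 86.5% by one of 1614 bp. Repeated sequence is common in such loci, and whether reads there map to 1 place was not assessed.

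Of the 18 members centred in no gene, all 12 within 1000 bp of a protein-coding gene ran over the edge of one. The peak at FWA, a homeodomain gene whose promoter repeats are a usual target of zinc finger fusions in Arabidopsis, was among them. The labels do not name the target of the zinc finger used here. It measured 1320 bp (chromosome 4, 13037515 to 13038834), and 475 bp of it (36.0%) overlapped the gene, covering 11.6% of its 4105 bp. Its centre lay 185 bp outside. The others lay at AT1G09900 (1602 bp), AT5G36190 (1522 bp), ATAN11 (1514 bp), QUL1 (1463 bp), AT4G02465 (1434 bp), AT5G66250 (1422 bp), AT1G29030 (1400 bp), AT5G38260 (1381 bp), XBAT33 (1376 bp), CRK15 (1350 bp) and OVA1 (1342 bp). The centre lay 11 to 185 bp from the gene in all 12 but those at QUL1 (602 bp) and AT5G66250 (304 bp). The centre farthest from any protein-coding gene belonged to a peak of 1361 bp in no gene (chromosome 2, 3663678 to 3665038), 12123 bp from AT2G09388. The next 4 lay in the pseudogenes AT3G30852, AT2G06560, AT1G41803 and AT5G35777, at 10401, 6501, 6043 and 5873 bp.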

How the data were processed

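The data are 1 list of ChIP-seq peak intervals, deposited by the authors under ZF-DDR5 replicate 1 as 3 columns (chromosome, start and end, counted from 0) with no score, so depth is unknown. Tools in the submitters' processing notes are Bowtie2 2.4.2, fastp 0.20.1, deepTools 3.5.1, Picard 2.25.6 and SAMtools, and the only build is TAIR10. How peaks were called (tool, threshold, control, pooling) is not given in the sources used.

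Positions are printed counted from 1. Genes came from the NCBI RefSeq table of TAIR10.1 (37899 nuclear loci, 27444 protein-coding), a name other than that in the notes, and coordinates of genes are left out for that reason. The table has no strand, exons or sequence, and no sequence is shown. A peak was placed by its centre, in protein-coding genes first, then in other genes. Intervals are Wilson or binomial order-statistic 95% intervals, those of differences combine both by squares, and all cover counting error only. Floors are 3 counts of the total. Genes were drawn into 23 lists by symbols and synonyms, plus the replication and repair list (another list is not reported here), with stems shared by unrelated genes narrowed or left out after the matches were read. A gene counted when a centre lay in its body. Named genes are those at the widest peak per chromosome, next to the threshold, longest, shortest, most covered, farthest from a gene, with 2 members, FWA, and up to 5 per list by width. Other genes named (peaks over 4 models, gene edges, pseudogenes, the last 2 P450 genes, neighbouring pairs, symbol families and the other replication genes) were chosen after their values were seen. Members, lists and measures were chosen with earlier results of these data known. Alternatives were 200 kb windows, thresholds of 1200 and 1500 bp, all peaks under 1300 bp, the largest overlap and genes of 2000 to 4000 bp. The code was tested on simulated peaks. Python 3.11.15, pandas 2.3.3 and scipy 1.17.1 were used.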

Additional observations from a re-analysis of the deposited data

How the results depend on the processing

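Of 30 alternatives to 7 results, 21 kept the direction and stayed inside the 95% interval of the main value. Among these, the difference in protein-coding share, 2.32 points, became 4.67 points (1.24 to 7.35, without 0) under the largest overlap. Under that rule a wider peak reaches a gene more often, so the change depends in part on width. The gene-poor difference, -3.21 points, became -1.45 points (-4.08 to 2.93, with 0) at 1500 bp. The results are differences between peaks of 1300 bp or more and of 400 to 600 bp, except the share of genes. Taking only genes of 2000 to 4000 bp reversed the difference in gene length, from 190.5 to -82 bp, as the band itself fixes the lengths, and both intervals include 0. The same band moved the difference in covered share from 30.7 to 36.0 percentage points, in relative position of the centre from 9.69 to 12.1 points and in distance to the nearest edge from 397 to 324 bp. That distance moved to 460.5 bp with a threshold of 1500 bp and to 339 bp against all peaks under 1300 bp. The share of protein-coding genes with a wide peak, 1.24%, was 1.47% when any overlap counted, 1.71% with 1200 bp (528 peaks) and 0.601% with 1500 bp (183 peaks), by construction. No paired analysis was possible because a single peak list was analysed. Depth, a score threshold and replicate agreement could not be assessed from this list.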

Other observations

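Some of the widest peaks lay side by side on neighbouring genes. Of the 378, 54 had another member within 10 kb, and the median gap to the nearest other member was 94.3 kb. No equal number of other peaks was set beside these values. Whether members lie closer together than peaks of other widths was not tested. On chromosome 1, AT1G62085 (1425 bp), the pseudogene AT1G62090 (1550 bp), AT1G62110 (1345 bp) and AT1G62120 (1649 bp) carried members with gaps of 3177, 3112 and 897 bp and no other peak between them. On chromosome 4, a peak of 1510 bp in no gene lay 513 bp from the peak of 1903 bp in the pseudogene AT4G09425, the smallest gap between members. The pseudogenes AT4G09700 (1347 bp) and AT4G09710 (1450 bp) had a gap of 3288 bp. Members also lay in the neighbours AT4G14390 (1823 bp) and ACD6 (1599 bp), which is known in the control of cell death. The gap between them was 4328 bp and held 1 other peak. LCV2 (1711 bp) and AT1G43140 (1500 bp) were 3777 bp apart, and CIPK5 (1523 bp) and ASG2 (1358 bp) 4922 bp apart. Whether neighbouring loci share sequence, and so reads, was not assessed.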
